A study of Mus musculus with 21 samples.

Results

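The lysyl oxidase family of the mouse has 5 members, Lox, Loxl1, Loxl2, Loxl3 and Loxl4, which were taken by gene name from the deposited gene table. All 5 were found, had reads in each of the 21 heart libraries and passed the filter on low counts, among 15216 genes that did so. The study, as its series description states, addresses how hearts change in a mouse model of HFpEF, heart failure in which the ejection fraction is kept, and under each of its components. All hearts came from male C57BL/6NJ mice, 8 to 10 weeks old when put on a diet, and were freeze-clamped.

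The 4 groups crossed diet with vector. The group "chow novirus" (n = 4) ate chow, "chow Renin" (n = 6) ate chow and received an adeno-associated virus (AAV) carrying renin, "HFD novirus" (n = 6) ate a high-fat diet with 60% of its energy from fat, and "HFD Renin" (n = 5) had that diet and the renin vector. Diets lasted 10 weeks, and hearts were taken 6 weeks after the injection into the retro-orbital sinus. The sample titles call the 2 control groups novirus, whereas the series description gives control mice a null vector. The tissue from which the vector makes renin is not given in the sources used here.

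Lysyl oxidases are copper-dependent amine oxidases that are secreted into the extracellular matrix. They turn lysine and hydroxylysine side chains of collagens and elastin into aldehydes, which condense into the cross-links that make fibres insoluble and stiff. In the heart they are mainly products of fibroblasts and vascular cells, and cross-linked collagen is known to stiffen the ventricle. Lox and Loxl1 are made as proenzymes that need proteolytic cleavage, whereas Loxl2, Loxl3 and Loxl4 carry scavenger receptor cysteine-rich domains in front of the shared catalytic domain.

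The catalytic domain holds a run of histidines that binds the copper ion, and its coding bases show what the members share at the letter level. The run was found by a search for the pattern in the coding sequence of the main transcripts of Loxl1 to Loxl4 in GENCODE M21 (build GRCm38). Lox was not part of that search. The run is printed for Loxl1 to Loxl4, 5′ to 3′ on the coding strand, with the 4 histidine codons in capitals. Each window has 33 coding bases across an exon junction, so the genomic span given with it also holds an intron.

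Loxl1, exons 3 and 4, chr9:58293720-58294381, minus strand: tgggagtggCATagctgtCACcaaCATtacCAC

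Loxl2, exons 10 and 11, chr14:69682316-69689037, plus strand: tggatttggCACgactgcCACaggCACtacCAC

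Loxl3, exons 10 and 11, chr6:83049995-83050125, plus strand: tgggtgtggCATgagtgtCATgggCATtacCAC

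Loxl4, exons 11 and 12, chr19:42598807-42599899, minus strand: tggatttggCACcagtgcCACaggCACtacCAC

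Among the printed windows, those of Loxl2 and Loxl4 were the closest pair, with 31 of 33 bases identical. Loxl1 and Loxl4 were the farthest apart, with 21 identical bases. The run began 78.4% of the way along the Loxl1 protein and 79.8% to 80.2% along the other 3. The full coding sequence was 1824 bases in Loxl1 and 2265 to 2331 bases in Loxl2, Loxl3 and Loxl4, which have the additional domains.

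Library totals ran from 18.7 to 29.3 M (mega) estimated reads and were lowest in chow novirus, whose 18.7 to 21.4 M did not overlap the 22.8 M or more of the other groups. Levels below are TMM-normalised read counts scaled to a common library total (CPM), or, where genes are compared with each other, shares of transcripts corrected for length (TPM). None of 6 cardiomyocyte markers was absent, and their sum was lower in HFD Renin, at 38900 to 44400 CPM, than in every other heart, at 45000 to 55900 CPM. Markers of the atria summed to 274 to 631 CPM in 5 hearts (chow novirus 3, chow Renin 1 and 3, HFD novirus 3 and HFD Renin 3) and to at most 39.7 CPM in the other 16. HFD novirus 6 stood apart in Nnt, a mitochondrial transhydrogenase, at 181 CPM against 539 to 973 CPM in the other 20 hearts; a further gene of that symbol overlaps it, so the assignment of its reads is uncertain. In chow Renin, 12 central nervous markers, such as Snap25, Mbp and Gfap, summed to 270 to 443 CPM, against 77.0 to 145 CPM in the other 15 hearts, and 8 genes of stimulated mesenchymal cells, such as Saa3 and Grem1, to 407 to 486 CPM against 89.7 to 121 CPM.

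Loxl1, known for its part in elastic fibre upkeep, was the most abundant member per transcript in every group. Its mean was 8.75 ± 1.54 TPM in chow novirus (SD, n = 4), 8.00 ± 1.26 in chow Renin (n = 6), 8.90 ± 4.13 in HFD novirus (n = 6) and 12.2 ± 2.17 in HFD Renin (n = 5). Loxl4 was the least abundant in every group, at means of 0.160 to 0.261 TPM. Among all tested genes, the mean TPM of Loxl1 stood at percentile 69.5, that of Loxl2 at 48.6, that of Lox at 47.1, that of Loxl3 at 35.6 and that of Loxl4 at 7.4.

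The order between the ends changed with the group. In chow novirus it was Loxl1, Loxl2, Loxl3, Lox and Loxl4, but Loxl3 exceeded Lox in only 2 of 4 hearts, and their order turned when counts per kilobase were used. In chow Renin, Lox moved up to the second place, at 6.84 ± 2.11 TPM, and exceeded Loxl2 in 6 of 6 hearts. Loxl1 was above Lox in 5 of 6 chow Renin hearts, by a mean log2 ratio of 0.26 with an SD of 0.53, so these neighbours did not differ beyond their spread. In both HFD groups the order was Loxl1, Loxl2, Lox, Loxl3 and Loxl4. Lox and Loxl3 did not differ beyond their spread in HFD Renin, where Lox was higher in 3 of 5 hearts.

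**Figure D1:**
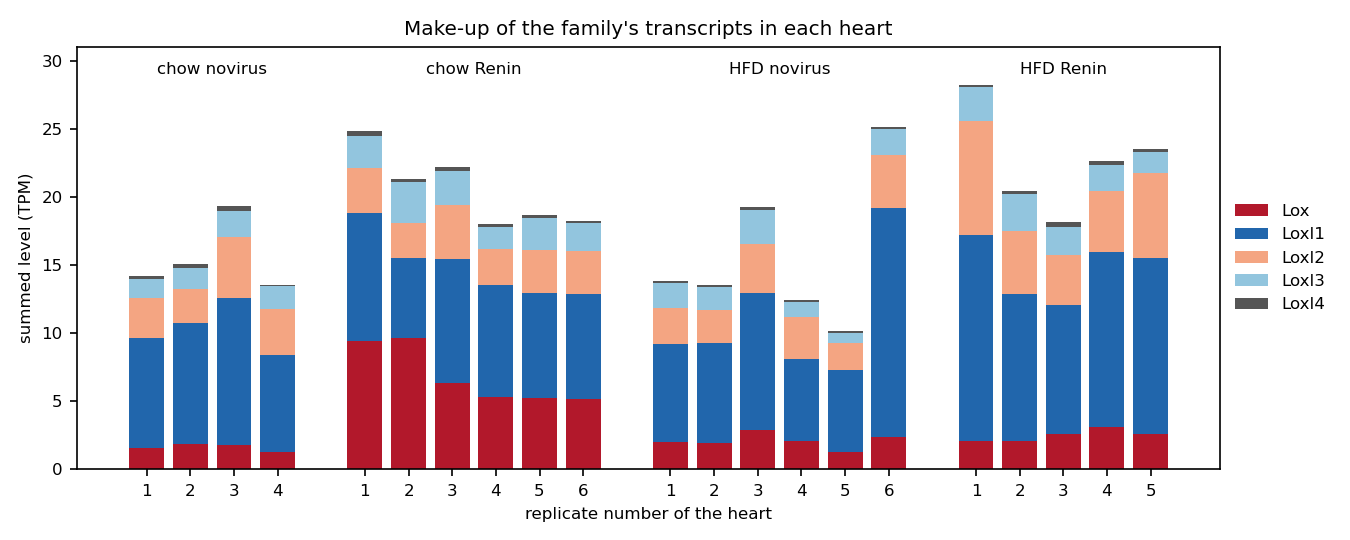
Stacked bars give the TPM of each family member in each of the 21 hearts, numbered by replicate within the 4 groups. Lox takes 28.1% to 45.2% of the summed TPM in chow Renin and 7.32% to 16.6% in the other hearts, and Loxl1 is the largest part in all hearts but chow Renin 2.

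The summed level of the 5 genes was 15.5 ± 2.61 TPM in chow novirus (n = 4), 20.5 ± 2.72 in chow Renin (n = 6), 15.7 ± 5.51 in HFD novirus (n = 6) and 22.6 ± 3.79 in HFD Renin (n = 5). The make-up of that sum differed between both renin groups. In chow Renin, Lox made 32.9% ± 7.09 and Loxl2 15.3% ± 2.43 of it (n = 6). In HFD Renin, Lox made 11.3% ± 2.88 and Loxl2 23.8% ± 4.17 (n = 5). In chow novirus, Lox made 10.3% ± 1.49 and Loxl2 21.1% ± 3.51 (n = 4).

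Each comparison was tested with the edgeR quasi-likelihood F test across all 15216 genes, and a gene was called when its adjusted p was under 0.05. As background, 8.29% of all tested genes were called in HFD Renin against chow novirus (4.05% higher and 4.25% lower), 13.5% in chow Renin against chow novirus (10.1% and 3.36%), and 0.0657% in HFD novirus against chow novirus (0.0131% and 0.0526%). The shares were 11.1% in HFD Renin against HFD novirus (6.07% and 5.08%), 22.6% in HFD Renin against chow Renin (9.8% and 12.8%), and 10.4% for the interaction, the renin effect under HFD minus the renin effect under chow (3.14% and 7.3%). Of the genes called, 75.0% were higher in chow Renin against chow novirus and 86.0% with upper-quartile scaling. The same change of scaling moved this share from 43.3% to 27.3% in HFD Renin against chow Renin and from 30.1% to 19.0% in the interaction.

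Of the 5 members, 1 was called in HFD Renin against chow novirus (Loxl2), 2 in chow Renin against chow novirus (Lox and Loxl3), 1 in HFD Renin against HFD novirus (Loxl2), 3 in HFD Renin against chow Renin (Lox, Loxl1 and Loxl2) and 2 in the interaction (Lox and Loxl2). None was called for the diet alone, HFD novirus against chow novirus, by edgeR or by DESeq2, and 1 had an unadjusted p under 0.05 there. These comparisons share groups, so their counts are not independent. The median log2 difference of the 5 members was 0.48 in HFD Renin against chow novirus, against 0.01 over all tested genes, and -0.1 in chow Renin against chow novirus, against -0.03.

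**Figure D2:**
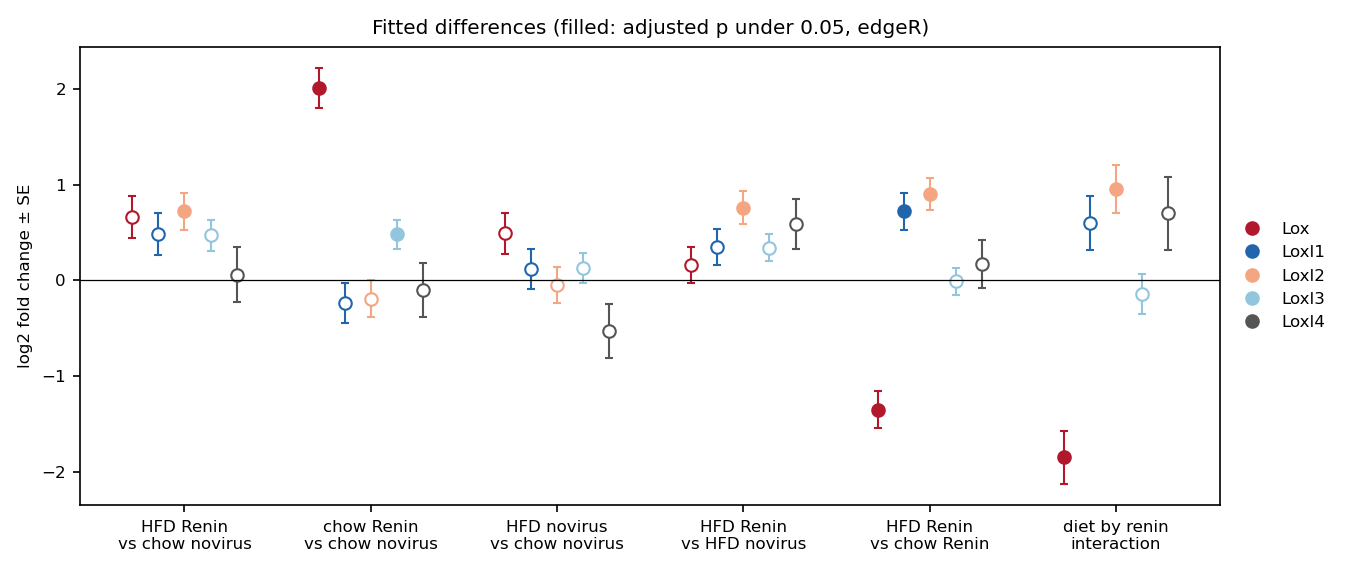
Points give the fitted log2 fold change of each member in the 6 comparisons, with bars of 1 SE, and filled points passed an adjusted p of 0.05. Lox stands at 2.01 in chow Renin against chow novirus and at -1.85 in the interaction, while Loxl2 is above 0.7 in each comparison that sets HFD Renin against another group.

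Lox (ENSMUSG00000024529, chromosome 18, 52516067 to 52529867, minus strand, GRCm38), the founding member of the family and a cross-linker of fibrillar collagen and elastin, was highest in hearts given renin on chow. Its levels were 9.12, 10.3, 9.40 and 7.18 CPM in the 4 chow novirus hearts. In chow Renin the lowest, median and highest of 6 hearts were 27.6, 30.7 and 53.0 CPM. All chow Renin hearts were above every other heart, and 2 of them, replicates 1 and 2 at 47.2 and 53.0 CPM, stood above the remaining 4, which lay between 27.6 and 32.4 CPM.

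On the high-fat diet Lox stayed low with or without renin. It ran from 8.49 to 16.1 CPM in the 6 HFD novirus hearts, with a median of 12.9 CPM. The 5 HFD Renin hearts measured 11.0, 12.3, 14.9, 18.2 and 14.4 CPM. Both HFD groups overlapped widely, and every HFD Renin heart was above every chow novirus heart.

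The rise of Lox in chow Renin over chow novirus was 4.03-fold, a log2 fold change of 2.01 (SE 0.21, adjusted p 5.3e-07). Against chow Renin, HFD Renin was lower by a log2 fold change of -1.35 (SE 0.19, adjusted p 1.48e-05). The effect of renin on HFD, 0.16 (SE 0.19, adjusted p 0.626), differed from that on chow by -1.85 (SE 0.28, adjusted p 9.51e-05). HFD Renin against chow novirus gave 0.66 (SE 0.22, adjusted p 0.0637), which DESeq2 called (adjusted p 0.0179), as did a fit on those groups alone (adjusted p 0.03). These are bulk hearts, in which more cells of a type and more RNA per cell cannot be told apart.

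Lox moved with the central nervous markers. Of that list, 11 of 12 genes were called higher in chow Renin against chow novirus, with a median log2 fold change of 2.36, and 11 were called lower in HFD Renin against chow Renin. Over all tested genes these shares were 10.1% and 12.8%. The list was chosen with earlier results of these data known, so its counts are no test. The list's sum was highest in chow Renin 1 and 2, at 434 and 443 CPM, which were also the hearts with most Lox, and 270 to 316 CPM in the remaining 4. With the score of this list as a covariate the difference in Lox was 0.36 (SE 0.37, adjusted p 0.802) between the chow groups, 0.0 (SE 0.32, adjusted p 0.999) between the renin groups and -0.06 (SE 0.41, adjusted p 0.998) for the interaction, and 45 genes were called between the chow groups in place of 2048. The list's sum did not overlap between chow Renin and the other groups, so the list and that group cannot be told apart in such a fit.

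The genes of the stimulated mesenchymal list rose in 8 of 8 cases in chow Renin against chow novirus, with a median log2 fold change of 2.07. Over all tested genes 10.1% were called higher there. This list, too, was chosen with earlier results of these data known, so its count is no test. Within chow Renin the sum of the list was lowest, 407 CPM, in replicate 1, a heart with high Lox, and 444 CPM in replicate 2. Neither list was at 0 in any group, and their part in the rise of Lox beyond the fit given was not tested. By the Spearman correlation of log2 CPM over 21 hearts, among 13153 genes with a mean of at least 1 CPM, the genes most like Lox were Aldoc (rho 0.948), a glycolytic enzyme known from astrocytes, Ptprt (0.945), a receptor phosphatase, and Adgrb1 (0.943), an adhesion receptor of brain. After the group means were removed, the Pearson correlations were 0.723, 0.808 and 0.832, and all 3 genes were highest in chow Renin. These correlations describe hearts that share a group and a depth, and no test was made of them.

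**Figure D3:**
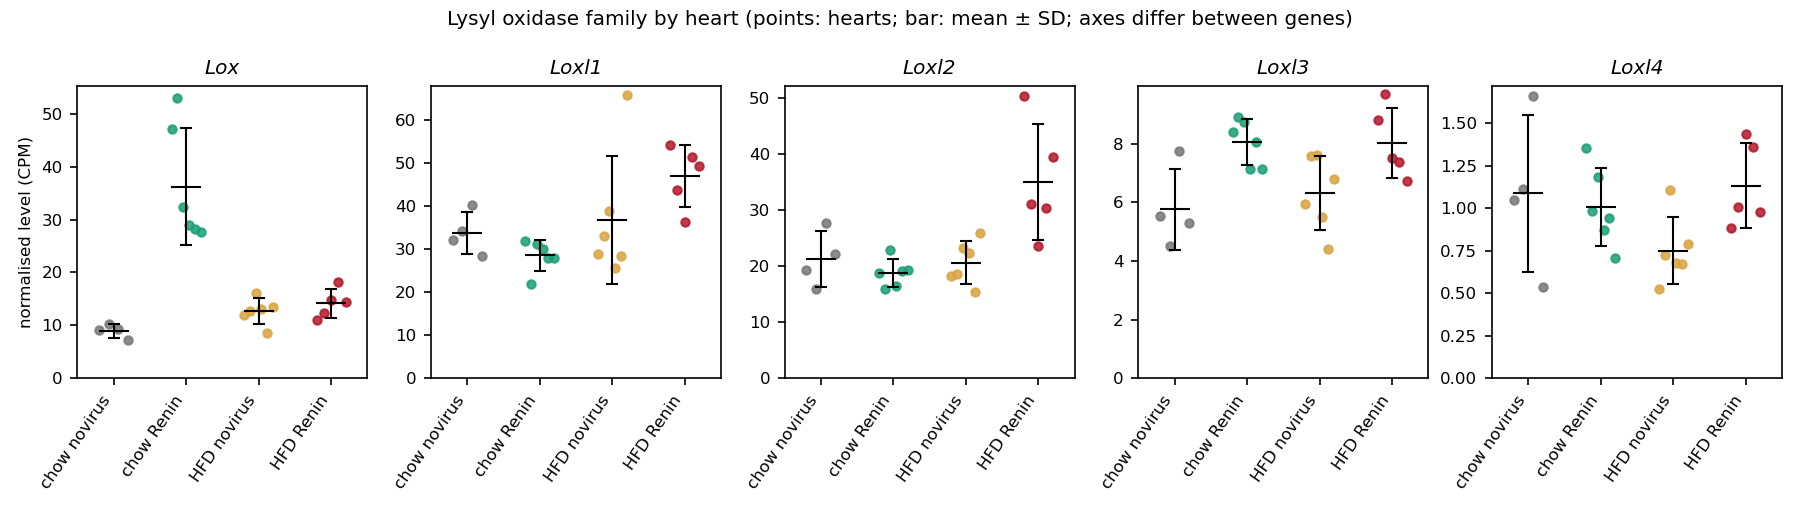
Each point is 1 heart, with normalised level in CPM on a linear axis from 0 that differs between the 5 panels, and the bars mark the mean and SD of each group. Chow Renin is separate from all other groups in Lox, HFD Renin lies highest in Loxl2, and HFD novirus 6 is the single high point of its group in Loxl1.

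Loxl2 (ENSMUSG00000034205, chromosome 14, 69609068 to 69695834, plus strand), which cross-links collagens including the basement membrane collagen IV, was highest in the combined model. The 4 chow novirus hearts measured 19.3, 16.0, 27.8 and 22.1 CPM. Chow Renin ran from 15.9 through a median of 19.0 to 22.9 CPM, and HFD novirus from 15.3 through 20.5 to 26.0 CPM (n = 6 each). The 5 HFD Renin hearts measured 50.4, 31.1, 23.7, 30.5 and 39.5 CPM. Of these, 4 were above every heart of the other groups, and HFD Renin 3, at 23.7 CPM, lay within their range.

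Loxl2 rose 1.7-fold in HFD Renin over HFD novirus, a log2 fold change of 0.76 (SE 0.17, adjusted p 0.00834), and by 0.9 (SE 0.17, adjusted p 0.000584) over chow Renin. Over chow novirus the rise was 0.72 (SE 0.19, adjusted p 0.0281). Renin on chow gave -0.19 (SE 0.19, adjusted p 0.609), and the effect of renin on HFD exceeded it by 0.95 (SE 0.25, adjusted p 0.0181). The call against chow novirus was lost without chow novirus 1, 2 or 4 or HFD Renin 1 or 5, with adjusted p of 0.0799, 0.0958, 0.0688, 0.0775 and 0.0685. It was also lost in a fit on those groups alone (0.71, adjusted p 0.12) and with limma on log2(TPM + 0.1) (0.69, adjusted p 0.0743), where the interaction was lost too (0.89, adjusted p 0.0653). It was kept, at 0.97 (adjusted p 0.00462), when the 5 hearts with high atrial markers were left out, a choice made after seeing the data.

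With a clock gene score as covariate, Loxl2 in HFD Renin differed from HFD novirus by 0.47 (SE 0.21, adjusted p 0.509) and from chow novirus by 0.3 (SE 0.26, adjusted p 0.826). In that fit 10 and 0 genes were called over all genes, in place of 1696 and 1262. The score is the mean log2 CPM of 8 clock genes that peak by the end of the day, such as Dbp and Per3, minus that of 5 that peak by the end of the night. It was 2.17 to 3.22 in HFD Renin and 3.1 to 3.46 in HFD novirus, which overlapped through HFD Renin 3 and 4 (3.22 and 3.19), and 3.38 to 3.62 in chow novirus, which did not overlap HFD Renin. The score and the group therefore cannot be told apart in the fit against chow novirus. Against HFD novirus they overlapped through HFD Renin 3 and 4 alone. The rise over chow Renin and the interaction kept their calls in that fit, at adjusted p of 0.00298 and 0.0107. With the central nervous score as covariate these last 2 differences were 0.29 (adjusted p 0.983) and 0.13 (adjusted p 0.998). Over all genes 40 and 23 were called in those fits, in place of 3440 and 1589.

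The genes most like Loxl2 over the 21 hearts were Meox1 (rho 0.908), a homeobox factor of activated cardiac fibroblasts, Cd34 (0.901), a surface protein of endothelial and stromal cells, and Fam198b (0.894). Within groups their Pearson correlations with Loxl2 were 0.861, 0.838 and 0.882. Meox1 measured 15.8 to 31.2 CPM in HFD Renin, above the 6.88 to 12.9 CPM of all other hearts.

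Markers of activated fibroblasts moved with Loxl2. Of 8 listed genes, 7 could be tested and 3 were called higher in HFD Renin against HFD novirus, with a median log2 fold change of 1.17. Over all tested genes 6.07% were called higher there. The sum of the list was 232 to 320 CPM in HFD Renin, 88.4 to 338 CPM in HFD novirus, 95.8 to 232 CPM in chow novirus and 76.9 to 202 CPM in chow Renin. HFD novirus 3 had the highest sum, 338 CPM, with 23.2 CPM of Loxl2. General fibroblast markers, such as Pdgfra and Dcn, had 1 of 8 genes called higher in the same comparison, with sums of 1400 to 1810 CPM in HFD Renin against 1310 to 2540 CPM. Cardiomyocyte markers moved the other way: 3 of 6 were called lower in HFD Renin against each other group, with a median log2 fold change of -0.17 against HFD novirus, -0.2 against chow novirus and -0.07 against chow Renin. Over all tested genes 5.08%, 4.25% and 12.8% were called lower in these comparisons. The part of these 3 lists in the rise of Loxl2 was not tested.

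**Figure D4:**
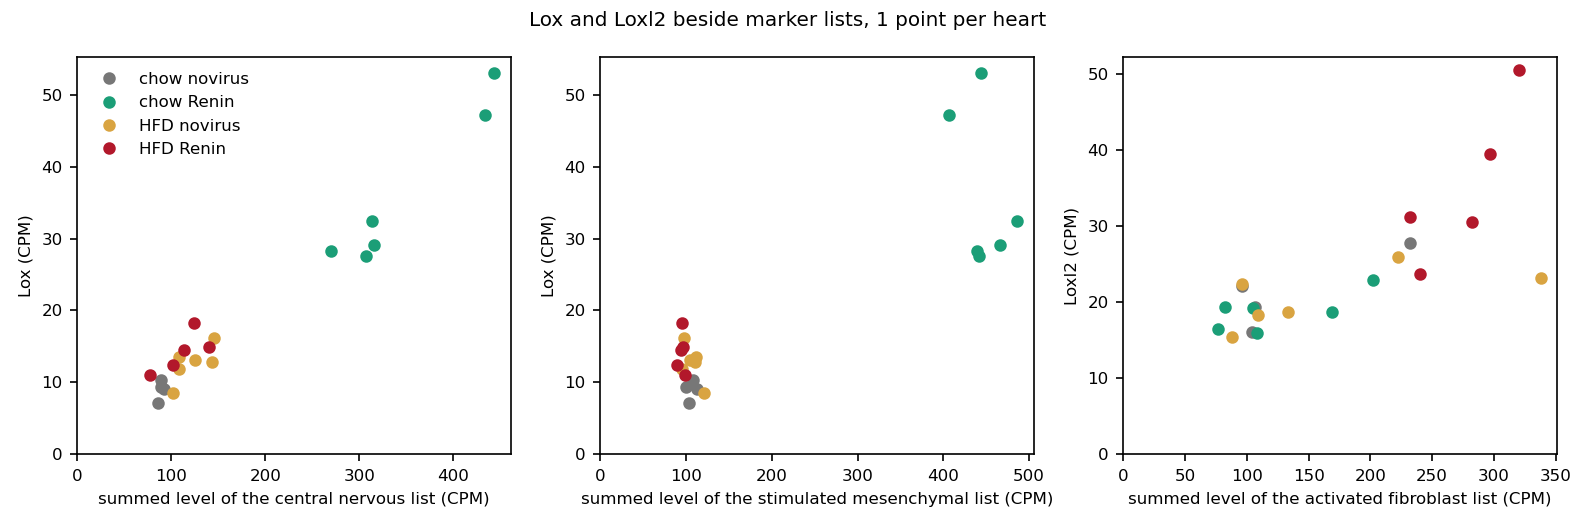
Each point is 1 heart, with the summed CPM of a marker list on the x axis and the CPM of Lox (left and middle) or Loxl2 (right) on the y axis. The 6 chow Renin hearts lie apart in both Lox panels, and HFD Renin hearts reach the highest Loxl2 at list sums of 232 to 320 CPM.

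Loxl1 (ENSMUSG00000032334, chromosome 9, 58287738 to 58313186, minus strand) was higher in HFD Renin than in chow Renin. The 4 chow novirus hearts measured 32.2, 34.1, 40.1 and 28.4 CPM. Chow Renin ran from 21.8 through a median of 29.1 to 32.0 CPM (n = 6). The 5 HFD Renin hearts, at 54.1, 43.8, 36.2, 51.5 and 49.3 CPM, were all above all chow Renin hearts.

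In HFD novirus, Loxl1 ran from 25.6 through 30.9 to 65.7 CPM (n = 6). The highest value belonged to HFD novirus 6, above every HFD Renin heart, and the remaining 5 reached 38.9 CPM. The same heart had the highest Eln, the elastin gene, at 148 CPM against 23.2 to 89.0 CPM in the other 20 hearts, and Col1a1 at 249 CPM, within their 74.2 to 272 CPM.

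The difference in Loxl1 between HFD Renin and chow Renin was a log2 fold change of 0.72 (SE 0.19, adjusted p 0.0101), and of 0.39 (adjusted p 0.983) with the central nervous score as covariate. With that score 40 genes were called over all genes, in place of 3440. Several marker lists moved in that comparison: activated fibroblast genes were called higher in 4 of 7 cases (median 1.19), endothelial in 3 of 6 (median 0.24) and fibroblast in 2 of 8 (median 0.31). Cardiomyocyte genes were called lower in 3 of 6 cases, central nervous in 11 of 12 and stimulated mesenchymal in 8 of 8. Over all tested genes 9.8% were called higher and 12.8% lower. The part of these lists in the difference in Loxl1 was not tested. HFD Renin against chow novirus gave 0.48 (SE 0.22, adjusted p 0.183) and against HFD novirus 0.35 (SE 0.19, adjusted p 0.25). The first of these passed in a fit on those groups alone (0.47, SE 0.12, adjusted p 0.0492). Without HFD novirus 6 the difference from HFD novirus was 0.6 (SE 0.13, adjusted p 0.00606), and the interaction moved from 0.6 (SE 0.28, adjusted p 0.212) to 0.84 (SE 0.18, adjusted p 0.00318). Chow Renin against chow novirus gave -0.24 (SE 0.21, adjusted p 0.532).

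The genes most like Loxl1 were Col1a2 (rho 0.906), a chain of collagen I, Adamts2 (0.897), the protease that trims procollagen I, and Gpr153 (0.871), with Pearson correlations within groups of 0.816, 0.828 and 0.875. Col1a2 measured 180 to 285 CPM in HFD Renin and 89.7 to 244 CPM elsewhere. Loxl1 and Loxl2 had the highest rho of any pair of members, 0.73. Lox and Loxl4 had the highest correlation within groups, 0.6 against 0.58 for Loxl1 and Loxl2. Lox and Loxl1 had a rho of -0.2 and Lox and Loxl2 one of -0.09.

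Loxl3 (ENSMUSG00000000693, chromosome 6, 83034173 to 83052562, plus strand), needed for palate and spine development, measured 5.53, 4.50, 7.74 and 5.28 CPM in chow novirus. It ran from 7.12 through 8.22 to 8.90 CPM in chow Renin and from 4.41 through 6.36 to 7.60 CPM in HFD novirus (n = 6 each). The HFD Renin hearts measured 8.81, 9.70, 7.50, 7.36 and 6.73 CPM. All but 1 of the chow novirus hearts were below all hearts of both renin groups.

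In chow Renin against chow novirus Loxl3 rose by 0.48 (SE 0.15, adjusted p 0.0384). That call was lost without chow novirus 1, 2 or 4 or chow Renin 1, 2, 3 or 5 (adjusted p 0.105, 0.17, 0.114, 0.0569, 0.0762, 0.0633 and 0.056). It was also lost with the clock score (0.36, adjusted p 0.292), with the central nervous score (0.25, adjusted p 0.889), and with limma on log2(TPM + 0.1) (0.46, adjusted p 0.309) or on the deposited signal (0.35, adjusted p 0.381). HFD Renin against chow novirus gave 0.47 (SE 0.16, adjusted p 0.0664), which did not pass. It passed with the replicate block (0.53, adjusted p 0.0298), thinned counts (0.5, adjusted p 0.0323) and DESeq2 (0.47, adjusted p 0.0407), and without chow novirus 3 (0.65, adjusted p 0.0151) or all 5 atrial-high hearts (0.66, adjusted p 0.0229). Against HFD novirus, Loxl3 passed with thinned counts alone (0.4, adjusted p 0.0443). The interaction was -0.14 (SE 0.21, adjusted p 0.762).

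Loxl3 rests on 81 to 251 estimated reads per heart and shares 535 of its 4603 exon bases with Htra2 on the opposite strand, which had 451 to 738 reads. The sources used here do not say whether strand was used, so reads of that stretch may belong to either gene. The transcript Loxl3-201 held 74.6% ± 12.4 of the gene's TPM (SD, n = 21) and 97.1% ± 1.77 of its estimated reads. In the other genes 1 transcript dominated: Loxl1-201 and Loxl2-201 held 100% of TPM in every heart, Loxl4-201 97.0% ± 9.5 and Lox-201 92.4% ± 13.9 (n = 21).

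Loxl4 (ENSMUSG00000025185, chromosome 19, 42593982 to 42612813, minus strand), a member best known from cartilage and tumours, was near the limit of these libraries, with 11 to 40 reads per heart. It measured 1.05, 1.11, 1.66 and 0.533 CPM in chow novirus and 0.885, 1.01, 1.44, 1.36 and 0.977 CPM in HFD Renin. Medians were 0.963 CPM in chow Renin and 0.702 CPM in HFD novirus, with ranges of 0.708 to 1.35 and 0.523 to 1.11 CPM (n = 6 each). All groups overlapped. The largest difference, 0.7 for the interaction (SE 0.38, adjusted p 0.283), did not pass, and no difference was detectable at this depth. Loxl4 moved with the atrial, valve and adipose markers: in each group the hearts high in atrial markers had the most Loxl4, at 1.66 CPM in chow novirus 3, 1.35 and 1.18 CPM in chow Renin 1 and 3, 1.11 CPM in HFD novirus 3 and 1.44 CPM in HFD Renin 3. The same 5 hearts had the highest sums of chondrocyte-like and valve markers, 10.1 to 21.6 CPM against at most 7.46 CPM in the others, and of adipose markers, 3.22 to 24.1 CPM against at most 1.31 CPM. The part of these lists in the level of Loxl4 was not tested, and without these 5 hearts no difference in it was called either.

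Genes around the family were called mostly in the higher direction in comparisons with HFD Renin. A list of 68 genes covered cross-linked substrates, proteins that activate or hold the enzymes, collagen modification, copper supply, upstream signals and other cross-linkers, and 65 could be tested. In HFD Renin against chow novirus 16 were called higher and 1 lower, where 4.05% and 4.25% of all tested genes were (median log2 0.27, against 0.01 over all tested genes). Against HFD novirus 14 were called higher and 1 lower, beside 6.07% and 5.08% of all genes (median 0.21, against -0.01). Against chow Renin 21 were called higher and 3 lower, beside 9.8% and 12.8% of all genes (median 0.22, against 0.02). The marker lists given beside Loxl1 and Loxl2 moved in the same comparisons, with activated fibroblast genes called higher in 3, 3 and 4 of 7 cases and cardiomyocyte genes lower in 3 of 6 in each. Endothelial genes were called higher in 3 of 6 cases against chow Renin and in none against either novirus group. Their part in these counts was not tested. In chow Renin against chow novirus 5 were called higher and 2 lower, a share near the 10.1% and 3.36% of all genes (median -0.04, against -0.03). For the diet alone 0 were called by edgeR and by DESeq2.

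With the clock score as covariate, 0 pathway genes were called in HFD Renin against either novirus group. Over all tested genes that fit called 0 against chow novirus and 10 against HFD novirus. Leaving out chow novirus 1, 2 or 4 or HFD Renin 1 or 5 gave 8, 8, 10, 9 and 10 calls against chow novirus. Leaving out HFD Renin 1 or 5 gave 9 and 9 against HFD novirus. Over all tested genes, fits that left out 1 heart gave 564 to 1724 calls against chow novirus, in place of 1262. Against HFD novirus they gave 698 to 2397, in place of 1696. Fits on the compared groups alone gave 11 and 8 calls against chow novirus and HFD novirus, and limma on log2(TPM + 0.1) gave 10 against chow novirus. Every pathway gene called in chow Renin against chow novirus, in HFD Renin against chow Renin or in the interaction lost that call with the central nervous score. In those fits 45, 40 and 23 genes were called over all tested genes, in place of 2048, 3440 and 1589. Without the 5 hearts of high atrial markers 20, 16 and 24 were called against chow novirus, HFD novirus and chow Renin.

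**Figure D5:**
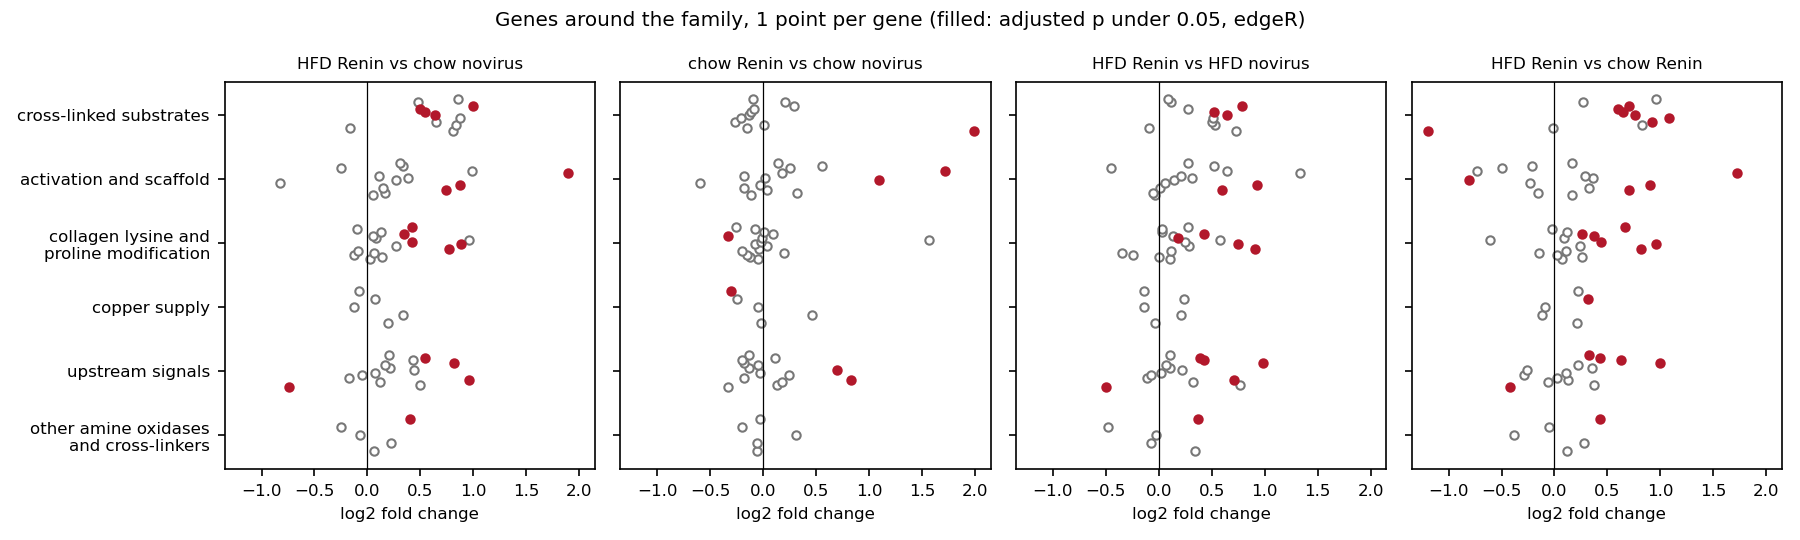
Each point is 1 of the 65 tested genes around the family, set by list on the y axis and by fitted log2 fold change on the x axis, in 4 comparisons; filled points passed an adjusted p of 0.05. Filled points lie mostly to the right in the 3 panels with HFD Renin, and the chow Renin panel has 7.

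Among the substrates, 4 of 11 were called higher in HFD Renin against chow novirus and 3 against HFD novirus, beside 4.05% and 6.07% of all tested genes. Without chow novirus 1, chow novirus 2 or HFD Renin 1 the first count was 1, without HFD Renin 5 it was 2, and without HFD novirus 6 the second was 7. Collagen V chain Col5a2 measured 38.4 to 56.3 CPM in HFD Renin and 18.9 to 32.7 CPM in chow novirus, a log2 fold change of 1.0 (SE 0.21, adjusted p 0.00634). The basement membrane chains Col4a1 and Col4a2, known substrates of Loxl2, rose by 0.64 (SE 0.14, adjusted p 0.00772) and 0.52 (SE 0.12, adjusted p 0.01) over HFD novirus, calls that were lost in a fit on those groups alone. Col1a1, the main chain of fibrillar collagen, gave 0.53 (SE 0.3, adjusted p 0.274) there, and Col3a1 0.51 (SE 0.29, adjusted p 0.281). Over chow Renin, Col3a1 rose by 1.08 (SE 0.29, adjusted p 0.0128), while Eln gave 0.96 (SE 0.43, adjusted p 0.12).

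In chow Renin, where Lox was highest, Col11a1, a minor fibrillar chain, was the single substrate called against chow novirus (1.99, SE 0.47, adjusted p 0.00424). Over all tested genes 10.1% were called higher there. Col11a1 was near the limit of these libraries, at 0.199 to 0.779 CPM in chow novirus and 0.942 to 2.52 CPM in chow Renin. Col1a1 gave 0.01 (SE 0.32, adjusted p 0.988) and Eln -0.1 (SE 0.46, adjusted p 0.932) in that comparison.

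Proteins that activate the enzymes or hold them near fibres were called higher in 3 of 14 cases in HFD Renin against chow novirus (Postn, Fbn1 and Fbln2). Over all tested genes 4.05% were called higher there. The count of the list was 1 without chow novirus 1, 2 or 4 or HFD Renin 1 or 5. Postn, the matricellular protein periostin that assembles the procollagen protease on the matrix, measured 53.2 to 133 CPM in HFD Renin and 12.1 to 49.2 CPM in chow novirus, a log2 fold change of 1.89 (SE 0.52, adjusted p 0.0312). The call of Postn was lost without chow novirus 1, 2 or 4 or HFD Renin 1 or 5, at adjusted p of 0.0649 to 0.104. Fibrillin 1 (Fbn1) and fibulin 2 (Fbln2), of elastic fibres, rose by 0.93 (SE 0.23, adjusted p 0.0163) and 0.6 (SE 0.13, adjusted p 0.00739) over HFD novirus, and the call of Fbn1 was lost without HFD Renin 1 or 5, at 0.0533 to 0.0634. Against chow novirus Fbn1 lost its call in 7 of 9 fits that left out 1 heart (all but HFD Renin 3 and 4), at 0.056 to 0.128. Bmp1, the protease that cleaves the Lox and Loxl1 proenzymes, was between -0.11 and 0.17 in all 6 comparisons and was called in none.

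In chow Renin against chow novirus, Fn1, the fibronectin gene, rose by 1.09 (SE 0.21, adjusted p 0.000923) and Thbs1, the matricellular protein thrombospondin 1, by 1.72 (SE 0.36, adjusted p 0.00262). Fn1 measured 132 to 195 CPM in chow Renin and 65.0 to 99.9 CPM in chow novirus, without overlap. For Fn1 the effect of renin was smaller on HFD than on chow by -0.94 (SE 0.28, adjusted p 0.035), the same sign as for Lox, and both rest on the same hearts. This call of Fn1 was lost in 10 of 21 fits that left out 1 heart (chow novirus 1, 2 or 4, chow Renin 1 or 3, HFD novirus 3 or 6, and HFD Renin 1, 2 or 5), at adjusted p of 0.0508 to 0.0827. It was also lost with no filter on low counts, with limma on TPM or on the deposited signal, and without the atrial-high hearts.

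Enzymes and chaperones of collagen modification were called higher in 5 of 16 cases in HFD Renin against chow novirus and in 4 against HFD novirus. Over all tested genes the shares were 4.05% and 6.07%. The first count of this list was 2 without chow novirus 1 or 4 and 3 without chow novirus 2 or HFD Renin 5, whereas P4ha1 kept its call in all 9 such fits. P4ha1, a prolyl hydroxylase subunit, measured 72.4 to 122 CPM in HFD Renin and 41.3 to 63.6 CPM in HFD novirus, and rose by 0.75 (SE 0.13, adjusted p 0.0019). P3h2, a prolyl 3-hydroxylase, rose by 0.91 (SE 0.17, adjusted p 0.00204). Plod2, which hydroxylates the telopeptide lysines that lysyl oxidases act on, rose by 0.43 (SE 0.08, adjusted p 0.00259). In chow Renin against chow novirus 1 was called, Plod1, another lysyl hydroxylase, with a log2 fold change of -0.33 (SE 0.07, adjusted p 0.00277). Over all tested genes 3.36% were called lower there.

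Of the upstream signals, 4 of 14 genes were called higher and 1 lower in HFD Renin against HFD novirus, beside 6.07% and 5.08% of all tested genes. The 4 became 2 without HFD novirus 2, 4 or 5 or HFD Renin 1, 2 or 5, and Tgfb2 kept its call in all 11 fits that left out 1 heart. Tgfb2, a growth factor known to induce lysyl oxidases, measured 21.6 to 26.4 CPM in HFD Renin against 9.70 to 21.4 CPM in all other hearts, and rose by 0.98 over HFD novirus (SE 0.17, adjusted p 0.00149). Its renin effect on HFD exceeded that on chow by 1.16 (SE 0.24, adjusted p 0.00262), the sign of Loxl2. Agtr1a, the angiotensin II receptor, was lower in HFD Renin than in HFD novirus, at -0.5 (SE 0.13, adjusted p 0.0163), a call lost without HFD Renin 1 or 5 (0.0557 to 0.0635). It was also lost in a fit on those groups alone and with limma on TPM or on the deposited signal.

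The lists of copper supply and of other cross-linkers hold 5 tested genes each, too few to set their counts apart from the shares of all genes. Of 5 tested copper genes, 1 was called in chow Renin against chow novirus, the transporter Slc31a2, at -0.3 (SE 0.09, adjusted p 0.0311), and none in HFD Renin against either novirus group. That call was lost without chow novirus 1 or 2 or chow Renin 1, 2, 4 or 5, at 0.052 to 0.107, and with either score, upper-quartile scaling, thinned counts, the filter at a mean of 1 CPM and limma on TPM. The copper importer Slc31a1 was called in HFD Renin against chow Renin (0.32, SE 0.11, adjusted p 0.0442), and lost that call in 8 of 11 fits that left out 1 heart (all but chow Renin 2 and HFD Renin 3 and 4), at 0.0557 to 0.27. Atp7a, the pump that loads copper onto secreted enzymes, gave 0.34 (SE 0.27, adjusted p 0.466) in HFD Renin and 0.46 (SE 0.26, adjusted p 0.28) in chow Renin against chow novirus. Tgm2, tissue transglutaminase, a cross-linker of another kind, rose by 0.37 over HFD novirus (SE 0.11, adjusted p 0.0336) and was the single gene called of the 5 tested in its list. Its call was lost without HFD novirus 1, 3, 4 or 6 or HFD Renin 1, 2 or 5, at 0.0539 to 0.157. It was also lost with either score, in a fit on those groups alone, with limma on the deposited signal and without the atrial-high hearts.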

How the data were processed

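RNA of 21 mouse hearts was sequenced. The submitters' processing notes name Salmon 1.10.2, DESeq2 1.40.2 and the builds GRCm38 and mm10, without parameters. Per the file headers, the authors deposited for each library estimated counts (expected counts, not normalized) and TPM per transcript. One more deposited table holds, per gene, a signal in each library and the log2 fold change and adjusted p-value from a comparison by the authors.

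Of 119215 transcripts, 97.95% matched GENCODE M21, and the unmatched ones (0.854% to 0.925% of reads) were dropped. Gene sums of the estimated counts were rounded, although raw counts had been planned for. Tests used edgeR 4.0.16 (R 4.3.3): TMM, filterByExpr, a term per group over 21 libraries, robust glmQLFit, the quasi-likelihood F test and Benjamini-Hochberg adjustment over 15216 genes. SEs are the absolute log2 fold change over the square root of F. The fit was tested on simulated data. Alternatives used limma 3.58.1, DESeq2 1.42.0, score covariates, thinned counts, other scaling and filters, and left-out libraries.

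The members and gene lists were chosen with earlier results of these data known. Named are all members, up to 3 called genes of largest change per pathway list and comparison, Col1a1, Col3a1, Eln, Bmp1, Postn and Atp7a, and the 3 genes most like each member. Fn1 fell under that rule. Some genes under it are not reported here. Labels do not pair hearts by replicate number, and the fit treated hearts as unpaired. Deviations of same-numbered hearts of different groups correlated at -0.226 to 0.421 (median 0.0775). Those of other-numbered hearts correlated at -0.263 to 0.403 (median -0.0248). Replicate 3 of every group was high in atrial markers.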

Additional observations from a re-analysis of the deposited data

Results flagged for a closer look

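Loxl1 in HFD novirus 6 measured 65.7 CPM, and its gap to the next heart of that group was 0.667 of the group's range, above the limit of 0.625 for 6 hearts. This was 1 of 20 sets of values examined (5 genes in 4 groups), and chance alone gives about 1 in 20.

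The effect of renin differed between the diets for Lox, by -1.85 on the log2 scale, and for Loxl2, by 0.95, each by the interaction term of the fit, whose adjusted p are given in the results above.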

How the results depend on the processing

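The number of members called (1 of 5) in HFD Renin against chow novirus was 0 with the clock score as covariate and with limma on log2(TPM + 0.1), 2 with the replicate block, with thinned counts and without the atrial-high hearts (Loxl2 and Loxl3 in each), 2 on those groups alone (Lox and Loxl1, with Loxl2 lost at adjusted p 0.12), and 3 with DESeq2 (Lox, Loxl2 and Loxl3); leaving out 1 library gave 0 to 2. In chow Renin against chow novirus (2) it was 1 with the clock score and with limma on TPM or on the deposited signal, and 0 with the central nervous score; leaving out 1 library gave 1 to 2. In HFD Renin against HFD novirus (1) it was 0 with the clock score and 2 with thinned counts; leaving out 1 library gave 1 to 2. In HFD Renin against chow Renin (3) it was 0 with the central nervous score. In the interaction (2) it was 0 with that score and 1 with limma on TPM, and Loxl1 was called too without HFD novirus 6. The replicate block, whose numbers mark no shared animal or batch in the labels, changed the number of members called in no other comparison, and took the genes called for the diet alone from 10 to 0.

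The differences that turned sign were called neither in the values reported above nor under the settings that turned them. With the central nervous score, they were Loxl4 in HFD Renin against chow novirus (-0.21), Loxl1 and Loxl2 in chow Renin against chow novirus (0.15 and 0.54), Loxl2 in HFD novirus against chow novirus (0.15), and Loxl3 in HFD Renin against chow Renin (0.18) and in the interaction (0.11). Thinned counts turned Loxl4 in HFD Renin against chow novirus (-0.11) and Loxl3 in HFD Renin against chow Renin (0.02). For Loxl4 in chow Renin against chow novirus the clock score gave 0.05, the replicate block 0.01 and limma on TPM 0.04. For the diet alone Loxl1 was -0.02 with the replicate block and -0.06 with limma on TPM, and Loxl3 was -0.1 with the latter. Without the atrial-high hearts Loxl2 for the diet alone was 0.06, and Loxl3 in HFD Renin against chow Renin 0.03. Leaving out 1 library gave Loxl4 -0.16 to 0.34 in HFD Renin and -0.33 to 0.18 in chow Renin against chow novirus, Loxl1 -0.12 to 0.22 and Loxl2 -0.16 to 0.11 for the diet alone, and Loxl3 -0.09 to 0.05 in HFD Renin against chow Renin. The cause of these changes was not tested. A filter at a mean of 1 CPM dropped Loxl4, whose 11 to 40 reads limit what can be seen.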

Other observations

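Loxl3 and Loxl4 had neighbours of their own. The genes most like Loxl3 over the 21 hearts were Taok3 (rho 0.857), Sh3rf3 (0.819) and Ptk2b (0.819), and Sh3rf3 measured 1.6 to 2.24 CPM in both renin groups and 0.485 to 1.35 CPM in both novirus groups. Within groups the Pearson correlations of these 3 genes with Loxl3 were lower, at 0.811, 0.453 and 0.585. Among the genes most like Loxl4 were Adamts8 (rho 0.83) and Col8a2 (0.829), with Pearson correlations within groups of 0.866 and 0.825. These rest on 11 to 40 reads of Loxl4 per heart, and Loxl4 was highest within each group in the hearts with high atrial, valve and adipose markers.

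The authors' deposited table gives a comparison headed with the high-fat diet and virus, whose reference group is not stated. In the authors' deposited table, Loxl2 stands at a log2 fold change of 0.49 with an adjusted p of 0.00572, and Lox at 0.34 with 0.0345. Loxl1, Loxl3 and Loxl4 stand at 0.2, 0.11 and 0.02 in the authors' deposited table, with adjusted p of 0.141, 0.408 and 0.905.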
